A study of Mus musculus with 20 samples.

Results

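The comparison set salivary glands of C57BL/6J mice at 12 weeks of age against glands of the same strain at 8 weeks. Its members were the arrays titled for these ages, 5 mice at 12 weeks and 5 mice at 8 weeks, which made 10 of the 20 arrays of a series that also held 5 mice at 4 weeks and 5 at 16 weeks. The strain is the nonautoimmune background of a Sjögren's syndrome model, and the mice at every age were labelled male, untreated in any stated way, with the glands freed of lymph nodes. Each mouse gave 1 Affymetrix array of total RNA, and the labels called the mice of an age biological replicates. The p-values therefore measure the spread between mice. Each of 18194 genes was represented by its brightest probe set that carried 1 gene symbol, and all values are log2 signals.

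The mouse salivary gland is built of acini, which secrete fluid and proteins, and of ducts that modify the saliva. In the submandibular gland some ducts become granular convoluted tubules, whose cells store glandular kallikreins, renin and growth factors such as EGF. These tubules develop around puberty and are larger in males, under the control of androgens. Secretory cells depend on the folding machinery of the endoplasmic reticulum (ER), on its stress responses and on a steady supply of amino acids.

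As a rough check of the tissue, since signals of different probe sets are not amounts of RNA, the means of the acinar markers Prol1, Pip and Slc12a2 were 13.7, 12.7 and 11.7 at 12 weeks, against 13.7, 12.9 and 10.8 at 8 weeks. Another of the 8 acinar markers, Smr3a, averaged 7.2 at 12 weeks and 7.66 at 8 weeks. It had 11.01 and 11.62 in replicate 2 of these ages, and between 5.56 and 7.35 in the other mice. The median over all genes was 5.49. The skeletal muscle markers were low, with means of 12 genes between 3.295 and 5.873 at 12 weeks, and between 3.441 and 6.016 at 8 weeks. The label male was set against transcripts linked to sex, and Xist and Eif2s3y were not as in males. Xist, which is made from an inactive X chromosome, lay between 9.41 and 10.7 at 12 weeks and between 8.96 and 10.2 at 8 weeks, above 97.7% of genes in every mouse. The Y-linked Eif2s3y lay between 2.26 and 2.97 at 12 weeks and between 2.32 and 2.9 at 8 weeks, no higher than the lowest 4.47% of genes. Of the other Y-linked genes measured, Kdm5d lay between percentiles 16.8 and 31.2 of genes and Uty between 38.8 and 59.4 over these 10 mice, so neither stood at the floor of the arrays. The mice of both ages are therefore named here by their age alone.

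Of all genes tested, 1 (0.0055%) rose and 0 fell at 12 weeks by limma with Benjamini-Hochberg adjustment, at an adjusted p under 0.05. A gene is called nominally higher or lower below where its limma p before adjustment was under 0.05, which held for 2015 genes (11.1%) that were higher and for 1409 (7.74%) that were lower. The values of the 5 and 5 mice did not overlap for 617 genes (3.39%) that were higher and 354 (1.95%) that were lower at 12 weeks. The direction of the difference went with the brightness of the gene. In the brightest decile of genes the median difference was 0.50, with 32.5% nominally higher and 0.989% nominally lower. In the dimmest decile it was -0.13, with 0.934% nominally higher and 11.4% nominally lower. The difference and the mean signal correlated with r = 0.455 over the genes, which are no independent replicates of each other.

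This trend lay in the arrays as a whole. The SD of all gene values within an array averaged 1.641 ± 0.0273 at 12 weeks and 1.498 ± 0.0901 at 8 weeks (SD, n = 5 each), and the lowest array of 12 weeks, at 1.599, lay just above the highest of 8 weeks, at 1.598. The difference of 0.143 had p = 0.00794 in a two-sided exact permutation test, the smallest p the 252 labelings of 5 and 5 mice can give, and 0.0198 after adjustment over 5 array measures. The slope of an array's deviation on the mean signal averaged 0.0513 ± 0.0170 at 12 weeks and -0.0603 ± 0.0767 at 8 weeks (SD, n = 5 each), with the same exact permutation p. The 8-week mice differed widely among themselves, since replicates 3 and 5 had slopes of -0.112 and -0.159 while replicates 1 and 4 had 0.0171 and 0.0109. The ratio of 3' to 5' signal of Gapdh, a measure of RNA quality given as a log2 difference, averaged 2.69 ± 0.233 at 12 weeks and 2.43 ± 0.968 at 8 weeks (SD, n = 5 each, two-sided exact permutation p = 0.587). For Actb it averaged 3.51 ± 0.537 at 12 weeks and 2.90 ± 1.26 at 8 weeks (SD, n = 5 each, two-sided exact permutation p = 0.349). These measures disagreed in 8-week replicate 1, which had the highest Gapdh value of its age, 3.94, and the lowest Actb value, 0.984. The part that RNA quality, hybridisation or the glands themselves had in the trend was not tested, and the labels name no batch.

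**Figure D1:**
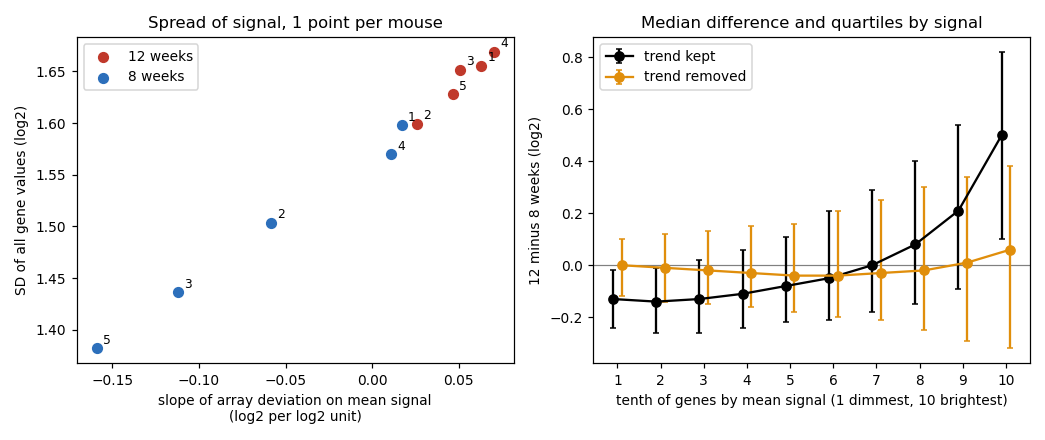
Left, the SD of all gene values of an array against the slope of its deviation on the mean signal, 1 point per mouse with its replicate number. Right, the median difference of 12 minus 8 weeks with quartiles in deciles of mean signal. With the trend kept the medians ran between -0.14 and 0.50, and with the trend removed they stayed between -0.04 and 0.06.

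The comparison was therefore made again after subtracting, in each array, a smooth curve (lowess) of its deviation from the 20-array mean on that mean. The correlation of difference and mean signal was then 0.0301, and the brightest decile held 17.3% of genes nominally higher and 10.6% nominally lower. In this second fit 7 genes (0.0385%) rose and 0 fell by limma. Nominally 1861 genes (10.2%) were higher and 1190 (6.54%) lower. The ages did not overlap for 459 genes (2.52%) that were higher and 380 (2.09%) that were lower. The removal presumes that most genes of a given brightness did not change, so a true change shared by most bright genes would be removed with it. Without 8-week replicates 3 and 5, the arrays of narrowest signal, the nominal counts were 712 higher and 724 lower with the trend kept, and 957 and 553 with it removed.

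Ret was the gene that rose in both fits. It encodes the receptor tyrosine kinase for ligands of the GDNF family, which bind it together with coreceptors of the Gfra family. Ret had 6.99, 6.87, 6.49, 7.42 and 6.89 in the 12-week mice, against 4.84, 5.36, 5.54, 5.47 and 5.21 in the 8-week mice. The lowest 12-week mouse lay 0.95 above the highest 8-week mouse. The means were 6.93 ± 0.333 at 12 weeks and 5.28 ± 0.279 at 8 weeks (SD, n = 5 each), a log2 difference of 1.64 (SE 0.21, limma adjusted p = 0.00189). Without the trend Ret rose by 1.58 (SE 0.19, limma adjusted p = 0.000516), and it passed in each of the 10 fits that left out 1 of these mice, in both forms. A second, dimmer probe set of Ret differed by 0.33. With the mean of both probe sets in place of the brighter one, the difference was 0.99 and its adjusted p was 0.0541 with the trend kept. At the outer ages of the series Ret averaged 6.82 (4 weeks) and 5.87 (16 weeks). The other 8 measured genes of RET ligands and coreceptors did not pass in either fit, and 0 of them were nominally higher or lower.

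Psat1, the phosphoserine aminotransferase of the serine synthesis pathway, had the largest difference among the genes that passed with the trend removed. It had 7.98, 7.39, 7.16, 7.78 and 7.88 in the 12-week mice, against 6.54, 5.04, 5.1, 6.15 and 4.84 in the 8-week mice. All 12-week mice were above all 8-week mice, with 8-week replicates 1 and 4 the nearest to them. The difference of 2.10 (SE 0.35, limma adjusted p = 0.0671) did not pass with the trend kept, and with the trend removed Psat1 rose by 2.02 (SE 0.32, limma adjusted p = 0.0132). Its 2 probe sets differed by 2.10 and 2.05. Psat1 averaged 7.85 at 4 weeks and 4.35 at 16 weeks.

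Klk1b16, a glandular kallikrein of the granular convoluted tubules, had 11.47, 10.48, 11.23, 11.31 and 11.34 in the 12-week mice, against 9.84, 9.12, 8.69, 9.99 and 6.87 in the 8-week mice. The ages did not overlap, although replicate 5 stood far below the other 8-week mice. The difference was 2.26 with the trend kept (SE 0.47, limma adjusted p = 0.105), and with the trend removed Klk1b16 rose by 1.72 (SE 0.30, limma adjusted p = 0.0462). At the outer ages its mean was 7.19 (4 weeks) and 9.5 (16 weeks). Kallikrein genes of this cluster are close copies of each other, so a probe set can take up signal from a neighbour.

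Atf5 encodes a transcription factor that is translated when amino acids are short or ER stress is present. It had 7.57, 6.93, 8.1, 7.46 and 7.75 in the 12-week mice, against 6.36, 6.83, 6.09, 6.17 and 5.92 in the 8-week mice. Without the trend Atf5 rose by 1.08 (SE 0.20, limma adjusted p = 0.0462), although 1 mouse of each age then overlapped, and with the trend kept the difference was 1.29 (limma adjusted p = 0.105).

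Nr1d2, which encodes the clock repressor REV-ERB beta, had 8.53, 8.6, 8.96, 8.78 and 8.71 in the 12-week mice, against 6.75, 6.91, 7.09, 8.3 and 6.26 in the 8-week mice. The 8-week replicate 4 was the nearest to the 12-week mice. Nr1d2 rose by 1.26 with the trend removed (SE 0.23, limma adjusted p = 0.0462), against a difference of 1.66 with the trend kept (limma adjusted p = 0.091). The second probe set of Nr1d2 differed by -0.31, against the direction of the one used.

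The other genes that passed act in membrane traffic and in mitochondria. Gapvd1, an exchange factor for the endosomal GTPase Rab5, had 8.16, 8.47, 8.09, 8.43 and 8.17 in the 12-week mice, against 7.01, 6.81, 6.79, 7.56 and 6.42 in the 8-week mice. It rose by 1.03 with the trend removed (SE 0.16, limma adjusted p = 0.0132), and differed by 1.35 with the trend kept (limma adjusted p = 0.0875), but only 2 of its 5 probe sets were higher at 12 weeks. Dnm1l, the dynamin-related GTPase that divides mitochondria, had 6.79, 7.44, 7.64, 7.26 and 7.38 in the 12-week mice, against 6.05, 6.28, 6.02, 6.67 and 5.61 in the 8-week mice. It rose by 1.02 with the trend removed (SE 0.18, limma adjusted p = 0.0462), and differed by 1.17 with the trend kept (limma adjusted p = 0.105). The dimmer probe sets of Dnm1l differed by 0.21, 0.01 and -0.02. Without 8-week replicates 3 and 5, Ret alone of these 7 genes passed in either form. In the 10 fits with the trend removed that left out 1 mouse each, Gapvd1 passed in 7, Psat1 in 6, Klk1b16 and Atf5 in 3 each, Dnm1l in 2 and Nr1d2 in 1, with adjusted p-values from limma of up to 0.174 for Nr1d2.

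**Figure D2:**
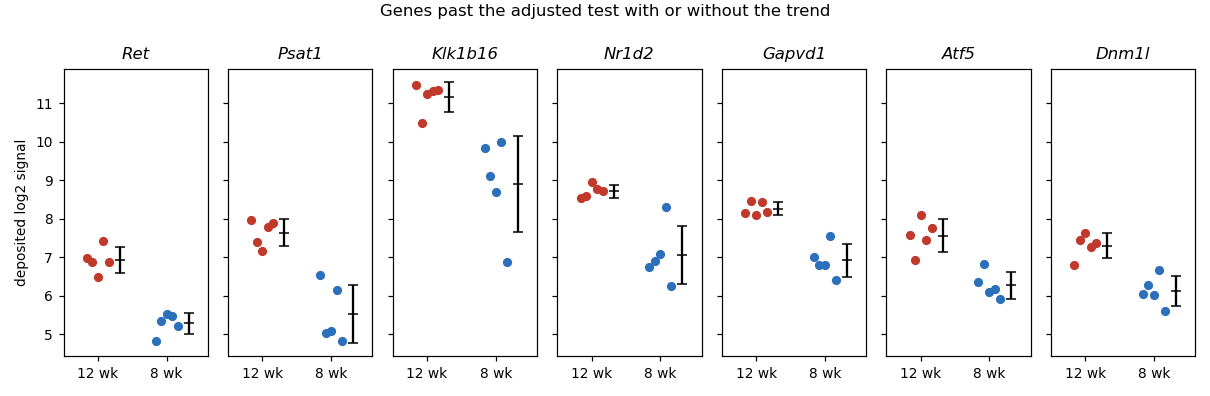
Deposited log2 signals of the 7 genes that passed with or without the trend, 1 point per mouse, at 12 weeks (red) and 8 weeks (blue), with black bars for the mean and SD. The 12-week mice lay above the 8-week mice in all 7 panels, by the widest margin for Ret, whose lowest 12-week value was 6.49 and highest 8-week value 5.54.

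Among brighter genes whose ages did not overlap, several larger differences did not pass the adjusted test. With the trend kept, the 10 largest positive differences ran between 1.63 and 2.26, and besides Ret, Psat1, Klk1b16 and Nr1d2 they were those of Ywhag, Chtop, Nfib, Hspa5, Rad23b and Ncl. Ywhag, a 14-3-3 adaptor protein, differed by 1.77 (limma adjusted p = 0.118), and by 1.6 with the trend removed, while its dimmer probe sets differed by 0.1, -0.58 and 0.19. Chtop, an mRNA export factor, differed by 1.75 and 1.74 in these fits (limma adjusted p = 0.114 and 0.0919). Rad23b, which carries ubiquitylated proteins to the proteasome, had 7.72, 7.8, 8, 7.83 and 8 at 12 weeks, against 6.7, 6.3, 6.16, 6.93 and 5.04 at 8 weeks, and was among the nearest to the threshold with the trend removed (1.40, limma adjusted p = 0.0608).

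Some of these differences rested on few mice. Hspa5, the ER chaperone BiP, lay between 10.6 and 10.82 in all 12-week mice, while the 8-week mice had 10.3, 8.35, 9.1, 10.39 and 7.27. The 8-week replicates 1 and 4 were close below the lowest 12-week mouse, with a gap of 0.21 for the nearer, and the difference of 1.65 did not pass (limma adjusted p = 0.163). Nfib, a transcription factor of the nuclear factor I family, had 4.27 in 8-week replicate 1 and at least 7.11 in the other 8-week mice, against at least 8.34 at 12 weeks.

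Removing the trend brought 4 further genes into the 10 largest positive differences, and none of them passed. They were Nipsnap2, a mitochondrial protein, with 1.48, Clk1, a kinase of splicing factors, with 1.46, Asph, a hydroxylase of the ER, with 1.32, and Prss23, a secreted serine protease, with 1.30. Their adjusted p-values from limma were 0.113, 0.0919, 0.203 and 0.166 in that order.

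No gene fell in either fit. The 3 lowest differences of all genes, looked up after their values were seen, were those of Obp1a, an odorant-binding lipocalin (-3.11), Gm14743 (-2.92) and Scgb1b2, a secretoglobin (-2.57), and their ages overlapped (limma adjusted p = 0.308, 0.291 and 0.253). Obp1a had 6.25, 5.77, 4.53, 5.41 and 3.08 in the 12-week mice, against 4.45, 10.18, 9.99, 5.89 and 10.09 in the 8-week mice. Scgb1b2 had 7.98, 7.21, 5.99, 6.54 and 5.85 in the 12-week mice, against 7.11, 10.14, 10.88, 7.14 and 11.12 in the 8-week mice. For both genes, 8-week replicates 2, 3 and 5 stood above all other mice of these ages, and replicates 1 and 4 lay among the 12-week mice.

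Among genes brighter than the median whose ages did not overlap, the negative differences were smaller in size than the positive ones. With the trend kept the 10 lowest of these ran between -0.65 and -0.75, those of Traf6, Fancc, Best2, Saxo1, Syp, 3110021A11Rik, Msi1, Kcnn3, Rpe65 and Ak4. A dimmer probe set of Ak4 differed by 0.16, against the direction of the one used. Fancc, a member of the Fanconi anaemia DNA repair complex, came nearest to the threshold. It had 6.02, 6.48, 5.79, 6.06 and 6.33 in the 12-week mice, against 6.68, 6.95, 7.09, 6.65 and 7.04 in the 8-week mice. The ages were apart in the opposite sense to Ret, with a difference of -0.75 (SE 0.14, limma adjusted p = 0.105), and of -0.86 with the trend removed (SE 0.17, limma adjusted p = 0.0528). All 3 of its probe sets were lower at 12 weeks.

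Traf6, the ubiquitin ligase of Toll-like receptor signalling, had 5.6, 5.79, 5.18, 5.24 and 5.33 in the 12-week mice, against 6.19, 6.36, 6.43, 5.81 and 6.11 in the 8-week mice. Its difference was -0.75 with the trend kept and -0.76 without it (limma adjusted p = 0.126 and 0.113). The dimmer probe sets of Traf6 lay between -0.27 and 0.35. With the trend removed, the lowest differences among such genes were those of 3110021A11Rik (-1.11), the synaptic vesicle protein Syp (-1.06), the spindle factor Tpx2 (-0.97), Syt11 (-0.94), Osgep (-0.90), Arhgef25 (-0.88), the laminin chain Lama5 (-0.87), Fancc, the RNA-binding protein Msi1 (-0.85) and Mfsd13a (-0.82). Of these, Tpx2, Syt11, Osgep, Lama5 and Mfsd13a overlapped between the ages before the trend was removed. In the deposited values, dimmer probe sets went the other way for Osgep (0.53), Arhgef25 (up to 0.34), Lama5 (0.07) and 3110021A11Rik (0.03). All probe sets of Syp, Tpx2, Syt11, Fancc, Msi1 and Mfsd13a were lower at 12 weeks, although the second of Syp differed by only -0.04.

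The gene lists below are described by counts and medians, beside the same values over all genes, whose median difference was -0.05 with the trend kept and -0.02 with it removed. Of all genes, 11.1% were nominally higher and 7.74% lower with the trend kept, and 10.2% and 6.54% with it removed. In bulk tissue, fewer cells of a type and less RNA per cell cannot be told apart.

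The products of the granular convoluted tubules stood highest of the 24 lists of functions. The list held 11 measured genes, which were Klk1, 8 of the Klk1b group, Egf and Crisp3, and their median difference was 1.18, and 0.79 with the trend removed. Of these, 9 were nominally higher with the trend kept and 8 with it removed, and 0 were nominally lower. Klk1b16 passed the adjusted test with the trend removed, and the other 10 did not pass in either fit. Leaving out 8-week replicates 3 and 5 gave medians of 0.78 and 0.56, with 4 genes nominally higher in each fit and 0 called.

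Klk1b5 had 11.15, 9.38, 10.57, 11.01 and 11.27 in the 12-week mice, against 9.89, 9.36, 8.82, 9.5 and 7.51 in the 8-week mice. Its difference was 1.66 with the trend kept and 1.13 with it removed (limma adjusted p = 0.114 and 0.0995). The 12-week replicate 2 lay within the range of the 8-week mice.

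Egf, the growth factor stored in the tubules, had 9.47, 8.97, 9.91, 10.6 and 9.99 in the 12-week mice, against 8.56, 8.91, 8.29, 9.4 and 7.21 in the 8-week mice. Its difference was 1.31 with the trend kept and 0.79 with it removed (limma adjusted p = 0.144 and 0.17). Klk1b11, Klk1b27, Klk1b1, Klk1b21, Klk1b8 and Klk1b24 differed by 1.45, 1.26, 1.18, 1.13, 0.87 and 0.81 with the trend kept, and by 0.85, 0.94, 0.98, 0.71, 0.45 and 0.59 with it removed. Klk1, true tissue kallikrein, with a mean signal of 12.8, differed by 0.76 with the trend kept, close to Klk1b24, and by -0.02 with it removed. The removal also lowered other genes of such brightness. The acinar products Car6 and Pip moved from -0.04 to -0.85 and from -0.23 to -1.0. The value of Klk1 without the trend is therefore not set against those of the dimmer Klk1b genes.

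Replicate 2 of the 12-week mice stood out across the list. Averaged over the 11 genes, the 12-week mice had 10.35, 9, 9.9, 10.38 and 10.36, against 9.32, 9.07, 8.54, 9.46 and 7.44 in the 8-week mice. The 12-week replicate 2 lay below 8-week replicates 1, 2 and 4, so the ages overlapped. Without the trend the 12-week mice had 9.97, 8.88, 9.53, 10.06 and 10.16, against 9.03, 9.19, 9.12, 9.35 and 8.12 in the 8-week mice, and replicate 2 still lay among the 8-week mice.

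Acinar products and secretion genes had medians nearer to that of all genes. Over 24 measured genes the median was 0.09, and 0.05 with the trend removed, with 4 nominally higher and 0 lower with the trend kept, and 1 higher and 2 lower with it removed. The higher genes were 16.7% and 4.17% of the list. Ano1, the calcium-gated chloride channel of acinar fluid secretion, had the highest difference, 1.09 with the trend kept and 0.59 with it removed (limma adjusted p = 0.143 and 0.224). Pip, the prolactin-inducible protein, had the lowest with the trend removed, -1.0, against -0.23 with it kept (limma adjusted p = 0.258 and 0.684). A second, dimmer probe set of Pip differed by 1.71 in the deposited values, against the direction of the one used. The 12-week replicate 2 had 11.17 for Pip, while the other 12-week mice had at least 12.91.

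Genes of serine synthesis and targets of ATF4, the transcription factor of the integrated stress response, also lay mostly above the level of all genes. Of 33 measured genes, 27 were positive with a median of 0.56, against 44.1% of all genes, and 24 were positive with a median of 0.40 when the trend was removed, against 47.5% of all genes. Nominally, 15 were higher and 0 lower with the trend kept, and 14 higher and 0 lower with it removed. Psat1 and Atf5 passed the adjusted test with the trend removed, and the other 31 did not pass in either fit. The medians were 0.39 and 0.31 without 8-week replicates 3 and 5, with 8 and 9 genes nominally higher, 1 lower in each fit and 0 called.

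Asns, asparagine synthetase, had 10.04, 10.14, 10.3, 10.19 and 10.2 in the 12-week mice, against 9.09, 9.14, 8.68, 9.53 and 8.13 in the 8-week mice. The ages were apart, and the difference was 1.26 with the trend kept and 0.69 with it removed (limma adjusted p = 0.118 and 0.0648). The 12-week mice lay within 0.26 of each other, while the 8-week mice spanned 1.4.

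Gpt2, the mitochondrial alanine aminotransferase, had 8.44, 8.46, 8.11, 8.28 and 7.94 in the 12-week mice, against 7.8, 6.63, 6.28, 7.22 and 5.69 in the 8-week mice, with differences of 1.52 and 1.18 in these fits (limma adjusted p = 0.129 and 0.0919). Pck2, the mitochondrial PEP carboxykinase, differed by 1.36 and 1.13, the amino acid transporter Slc7a5 by 1.11 and 0.72, and Mthfd2 of mitochondrial folate metabolism by 0.88 and 0.56. Psph, which completes serine synthesis, differed by 0.59 and 0.66. The transcript of Atf4 itself, whose protein is set mainly by translation, differed by 0.56 and 0.08.

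Averaged over the 33 genes, the 12-week mice had 7.3, 7.16, 7.32, 7.36 and 7.32, against 7.02, 6.9, 6.36, 6.8 and 6.34 in the 8-week mice. Without the trend they had 7.16, 7.09, 7.14, 7.22 and 7.24, against 6.92, 6.95, 6.66, 6.77 and 6.61 in the 8-week mice. The ages did not overlap in either form.

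The list of ATF4 targets was also looked at in its promoters, since ATF4 binds DNA with partners of the C/EBP family at a composite element. The letters TGATGCAA were searched on both strands of RefSeq promoters (GRCm38.p6, 250 bases before to 50 after the start). Because the list was drawn up to hold ATF4 targets, a high share can follow from that choice and does not bear on the ages. The letters were in 7 of 29 genes of the list that had a promoter (24.1%), against 0.803% of 14453 measured genes. The windows below show the matches of 6 of these genes, 5' to 3' on the strand of the gene, with 1 match a line in capitals, and TTGCATCA is the same element read from the other strand.
Chac1, chr2:119351033-119351072, +: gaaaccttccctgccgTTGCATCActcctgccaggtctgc
Atf3, chr1:191183420-191183459, -: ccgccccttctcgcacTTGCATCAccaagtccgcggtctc
Slc7a11, chr3:50443656-50443695, -: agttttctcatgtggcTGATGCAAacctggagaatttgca
Slc7a11 (second match, overlapping window), chr3:50443637-50443676, -: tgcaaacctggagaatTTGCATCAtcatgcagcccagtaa
Nupr1, chr7:126625557-126625596, -: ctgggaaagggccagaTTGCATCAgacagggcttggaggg
Vldlr, chr19:27216804-27216843, +: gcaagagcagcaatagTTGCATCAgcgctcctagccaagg
Fgf21, chr7:45615606-45615645, -: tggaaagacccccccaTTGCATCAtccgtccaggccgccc

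Of the 7 genes with a match, Chac1 was the one that was nominally higher or lower. Chac1, a glutathione-degrading enzyme, had 8.51, 8.74, 7.78, 8.59 and 9.17 in the 12-week mice, against 9.02, 7.05, 6.66, 7.14 and 7.27 in the 8-week mice, a difference of 1.13, and of 0.71 with the trend removed (limma adjusted p = 0.174 and 0.282), with 8-week replicate 1 among the 12-week mice. Nupr1, a stress-induced nuclear protein, differed by 1.29 with the trend kept and 0.68 with it removed (limma adjusted p = 0.286 and 0.445), and Fgf21, a hormone of fasting, by -0.32 in both fits (limma adjusted p = 0.387 and 0.431). Slc1a4, Atf3, Slc7a11 and Vldlr differed by 0.23, 0.09, 0.02 and -0.25 with the trend kept, and by 0.14, 0.15, 0.09 and -0.25 with it removed. Neither Psat1 nor Atf5 held these letters, and of the 7 genes that passed, the 6 with a promoter in the table held none of the 5 motifs searched, which besides these letters were CACGTG, TTATGTAA, CCACGTCA and AGAACA, present on either strand in 10.2%, 0.837%, 0.989% and 17.0% of measured genes.

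Splicing factors had the second highest median. Over 32 measured genes it was 0.73, and 0.54 with the trend removed, with 21 nominally higher and 0 lower with the trend kept, and 17 higher and 1 lower with it removed. These medians were 0.54 and 0.38 without 8-week replicates 3 and 5, with 13 and 11 nominally higher. None passed the adjusted test. Clk1, which phosphorylates SR proteins, had 6.95, 7.48, 7.35, 7.87 and 6.91 in the 12-week mice, against 6.41, 5.05, 5.64, 6.71 and 4.84 in the 8-week mice. The ages were apart, by 0.2 at the nearest, with a difference of 1.58 with the trend kept (limma adjusted p = 0.114).

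Tra2b, an SR-like splicing activator, had 6.81, 6.84, 7.02, 7.35 and 7.15 in the 12-week mice, against 5.97, 5.43, 5.62, 6.64 and 5.05 in the 8-week mice. Its difference was 1.29 with the trend kept and 1.17 with it removed (limma adjusted p = 0.114 and 0.0648), but only 2 of its 5 probe sets were higher at 12 weeks. Its paralogue Tra2a differed by 1.13 in both fits, while the dimmer probe sets of Tra2a lay between -0.4 and 0.29. Hnrnpa2b1 and Hnrnph1, hnRNP proteins, differed by 1.45 and 1.30 with the trend kept, and by 0.98 and 0.80 with it removed. The SR-rich protein Son differed by 1.53 and 1.07, and Sf3b1, of the U2 particle, by 1.09 and 0.63.

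Averaged over the splicing factors, the 12-week mice had 7.9, 7.81, 7.68, 7.99 and 7.65, against 7.3, 7.04, 6.96, 7.45 and 6.71 in the 8-week mice. After the trend was removed they had 7.71, 7.73, 7.46, 7.81 and 7.55, against 7.17, 7.11, 7.33, 7.41 and 7.07 in the 8-week mice. The ages were apart in both forms, with 12-week replicate 3 the nearest to the 8-week mice when the trend was removed.

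**Figure D3:**
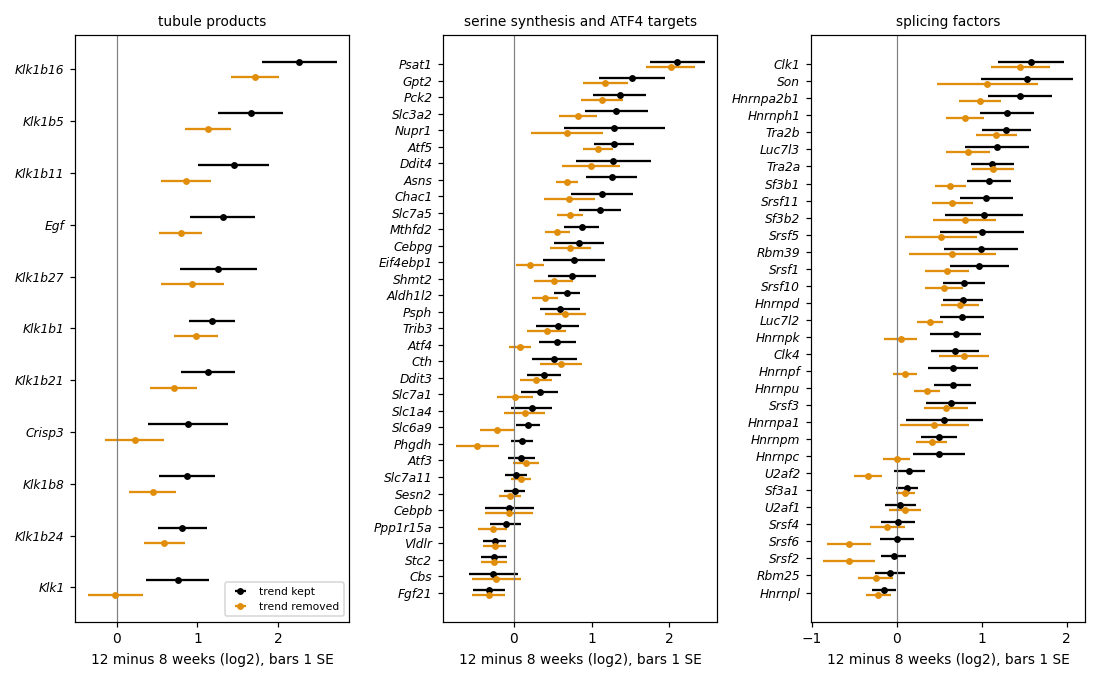
Difference of 12 minus 8 weeks (log2) for each measured member of 3 lists, with bars of 1 SE, for values with the trend kept (black) and removed (orange). Most tubule products and ATF4 targets stayed above 0 without the trend, with medians of 0.79 and 0.40, while Klk1 moved to -0.02.

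Genes of ER folding and the secretory pathway lost more of their difference with the trend. Over 59 measured genes the median was 0.72, and 0.39 with the trend removed, and 30 were nominally higher and 0 lower with the trend kept, against 16 higher and 0 lower with it removed. Herpud1, a component of ER-associated degradation, had 9.88, 9.33, 10.04, 9.89 and 9.86 in the 12-week mice, against 8.77, 8.31, 8.26, 9.21 and 6.56 in the 8-week mice. Its difference was 1.58 with the trend kept and 1.05 with it removed (limma adjusted p = 0.141 and 0.0995). Spcs1, of the signal peptidase, differed by 1.45 and 1.11. Averaged over the list, the 8-week replicates 1 and 4 had 8.04 and 8.14, next to 8.07 in the lowest 12-week mouse, while 8-week replicates 3 and 5 had 7.17 and 6.79. Without these 2 mice the medians of the list were 0.30 and 0.15, with 5 and 7 genes nominally higher and 0 and 3 lower.

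The proteasome, which degrades ubiquitylated proteins, had a median of 0.64 over 31 genes, and 0.37 with the trend removed. Nominally, 12 were higher and 0 lower with the trend kept, and 10 and 0 with it removed. Psma3, Psmb4, Psmd12 and Psma1 differed by 1.25, 1.19, 1.14 and 1.13 with the trend kept, and by 0.94, 0.89, 1.01 and 1.19 with it removed. None passed, and without 8-week replicates 3 and 5 the medians were 0.24 and 0.13.

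Oxidative phosphorylation and the cytosolic ribosome had the medians that moved most with the trend. The 72 measured genes of oxidative phosphorylation had a median of 0.71, and 0.26 with the trend removed, with 23 nominally higher and 0 lower with the trend kept, and 17 higher and 3 lower with it removed. The 31.9% nominally higher with the trend kept stood beside 32.5% in the brightest decile of all genes, and the 23.6% with it removed beside 17.3%. Atp5b, the catalytic beta subunit of ATP synthase, had 10.05, 9.1, 10.39, 9.52 and 10.17 in the 12-week mice, against 8.72, 8.13, 8.11, 9.12 and 6.77 in the 8-week mice, with differences of 1.68 and 1.14 (limma adjusted p = 0.129 and 0.0919). Atp5pb differed by 1.34 and 0.77, and the complex I subunit Ndufb10 by 1.30 and 1.09.

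The 45 measured cytosolic ribosomal proteins, with a median mean signal of 10.2, had a median difference of 0.66, beside 0.50 in the brightest decile of all genes. With the trend removed it was 0.11, with 5 nominally higher and 4 lower, against 10 higher and 0 lower with the trend kept. Rps3a1, Rpl7 and Rps4x differed by 1.32, 1.20 and 1.18 with the trend kept, and by 0.69, 0.56 and 0.52 with it removed. Averaged over the list with the trend removed, 8-week replicates 1 and 2 had 9.74 each, above all 12-week mice, which lay between 9.43 and 9.69. Without 8-week replicates 3 and 5 the medians were 0.22 and 0.03 for oxidative phosphorylation, and 0.12 and -0.09 for ribosomal proteins.

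**Figure D4:**
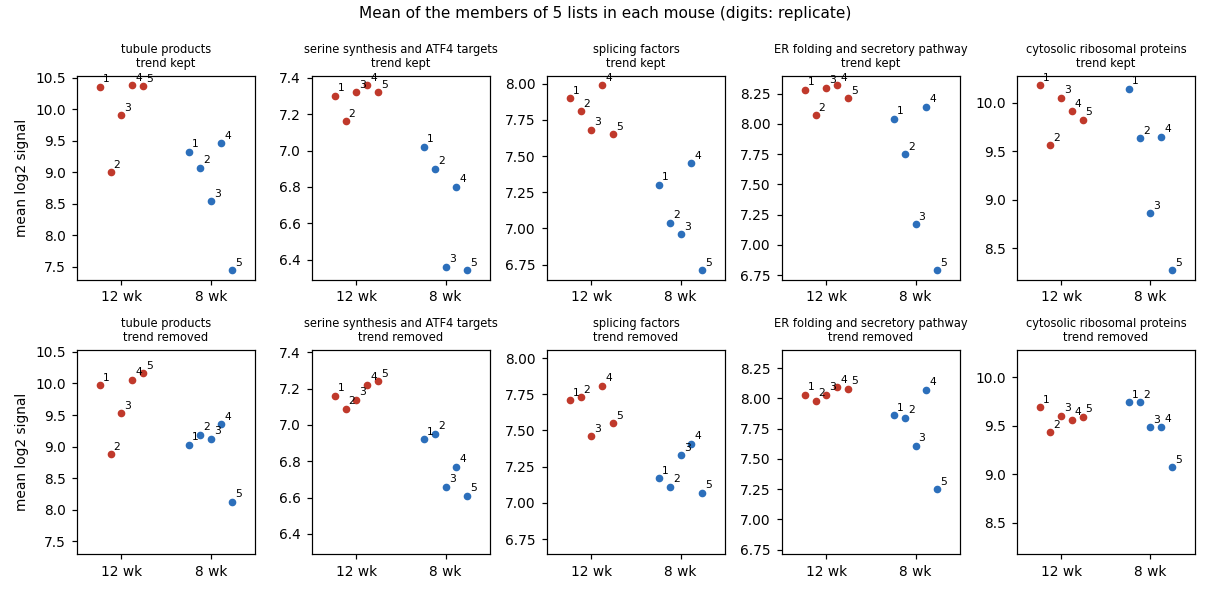
Mean log2 signal of the measured members of 5 lists in each mouse, at 12 weeks (red) and 8 weeks (blue) with replicate numbers, with the trend kept (top) and removed (bottom). The ages stayed apart without the trend for ATF4 targets, between 7.09 and 7.24 at 12 weeks and between 6.61 and 6.95 at 8 weeks, and overlapped for ribosomal proteins.

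The circadian clock turns on transcription through CLOCK and BMAL1 at E-boxes, and through PAR bZIP factors at D-boxes. The hour at which the glands were taken is not given in the sources used here. Of 19 measured clock genes, 10 were nominally higher and 1 was lower with the trend kept (median 0.49), and 6 higher and 2 lower with it removed (median 0.24). Nr1d2 passed the adjusted test with the trend removed, and the other 18 did not pass in either fit. Leaving out 8-week replicates 3 and 5 gave medians of 0.24 and 0.18, with 2 higher and 1 lower in each.

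Nr1d1, which encodes REV-ERB alpha, had 6.43, 6.23, 6.74, 6.45 and 6.79 in the 12-week mice, against 5.71, 5.89, 5.76, 6.01 and 5.55 in the 8-week mice. The ages were apart, with differences of 0.74 and 0.64 in these fits (limma adjusted p = 0.114 and 0.0919). Dbp, a PAR bZIP factor, had 10, 9.57, 10.28, 10.13 and 9.42 in the 12-week mice, against 9.92, 8.02, 8.22, 9.32 and 7.59 in the 8-week mice, with differences of 1.27 and 0.74 (limma adjusted p = 0.137 and 0.214).

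As for the ATF4 targets, a high share of E-boxes can follow from the choice of clock genes and does not bear on the ages. The E-box letters CACGTG, which read the same on both strands, were in the promoters of 5 of 17 clock genes (29.4%), against 10.2% of measured genes. The windows of 3 of them are shown because these genes differed in both directions, with the E-box in capitals.
Per1, chr11:69098767-69098804, +: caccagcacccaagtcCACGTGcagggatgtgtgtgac
Cry1, chr10:85185093-85185130, -: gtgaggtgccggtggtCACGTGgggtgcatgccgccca
Bhlhe41, chr6:145865552-145865589, -: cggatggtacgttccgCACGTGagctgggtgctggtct

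Per1 and Cry1 encode repressors of CLOCK and BMAL1, and they differed by 0.69 and 0.67 with the trend kept, and by 0.52 and 0.80 with it removed (adjusted p between 0.172 and 0.244 from limma). Bhlhe41, the E-box-binding repressor DEC2, had 4.7, 4.77, 4.47, 4.85 and 5.05 in the 12-week mice, against 5.31, 5.24, 5.49, 5.29 and 5.26 in the 8-week mice. It was the clock gene whose ages were apart in the negative direction, with differences of -0.55 and -0.48 (limma adjusted p = 0.129 and 0.143), and its second probe set had the opposite sign.

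Lists of cell structure and signalling were moderately positive. The median mean signals were 6.92 for focal adhesion, 6.96 for junctions and 6.84 for insulin, mTOR and autophagy, within the second brightest decile. In that decile 22.4% of all genes were nominally higher with the trend kept and 15.5% with it removed. The shares of these lists were 34.0%, 29.4% and 27.3% with the trend kept, and 24.0%, 26.5% and 21.2% with it removed. Focal adhesion and actin genes had a median of 0.45 over 50 genes, and 0.18 with the trend removed, with 17 nominally higher and 0 lower, against 12 higher and 1 lower with the trend removed. Actr3, of the actin-nucleating Arp2/3 complex, differed by 1.1 and 0.80, and Arhgap5, a GTPase-activating protein, by 0.98 and 0.90, with the ages apart for both genes in both fits. Actg1, cytoplasmic gamma actin, differed by 1.11 with the trend kept and 0.47 with it removed.

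Cell-cell junctions, with 34 genes, had medians of 0.45 and 0.18, with 10 nominally higher and 0 lower, against 9 higher and 2 lower with the trend removed. Pkp4, a plakophilin-like junction protein, had 8.04, 8.09, 8.26, 8.41 and 8.06 in the 12-week mice, against 7.36, 6.56, 6.6, 7.72 and 5.09 in the 8-week mice, with differences of 1.51 and 1.22 (limma adjusted p = 0.143 and 0.113). Cldn10, a pore-forming claudin, differed by 1.21 and 0.76, and alpha-catenin Ctnna1 by 1.14 and 0.66.

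Insulin, mTOR and autophagy genes had medians of 0.35 and 0.18 over 33 genes, with 9 nominally higher and 0 lower, and 7 and 1 with the trend removed. Rheb, the GTPase that activates mTORC1, differed by 1.17 and 0.77, and the autophagy receptor Nbr1 by 1.13 and 0.64. The 12 polyamine genes had medians of 0.41 and 0.24, with 3 nominally higher and 1 lower, and 3 and 2 with the trend removed. Their lowest differences were -0.49 and -0.41. Azin1, the antizyme inhibitor, differed by 1.51 and 1.13, and Odc1, the enzyme it protects, by 1.17 and 0.78. The dimmest probe sets of Azin1 and Odc1 differed by -0.23 and -0.25 in the deposited values. Among 17 targets of glucocorticoids and androgens, 6 were nominally higher and 1 lower, and 4 and 0 with the trend removed, led without the trend by the kinase Sgk1 with 1.06. None of the genes named in these lists passed. Without 8-week replicates 3 and 5 the medians were 0.24 and 0.14 for focal adhesion and actin, 0.21 and 0.07 for junctions, and 0.22 and 0.16 for insulin, mTOR and autophagy.

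Collagens and matrix genes, 34 in number, had medians of 0.06 and -0.02, with 4 nominally higher (11.8%) and 1 lower, and 3 (8.82%) and 4 with the trend removed. Postn, a matricellular protein, had 7.03, 6.73, 7.6, 7.38 and 7.37 in the 12-week mice, against 6.17, 6.85, 5.99, 6.79 and 6.1 in the 8-week mice. Its difference was 0.84 with the trend kept and 0.65 with it removed (limma adjusted p = 0.114 and 0.104). Wnt and TGF beta genes, 42 in number, had medians of 0.00 and -0.01.

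In the immune lists the medians lay between -0.21 and 0.16. B and plasma cell genes, 17 in number, had a median of -0.21 in both fits, with 2 nominally higher and 5 lower, and 3 and 3 with the trend removed. Both higher genes were products of plasma cells that secrete IgA. Igha, the IgA heavy chain, had 9.04, 8.36, 7.49, 10.31 and 5.68 in the 12-week mice, against 7.95, 5.71, 6.41, 5.76 and 6.15 in the 8-week mice. Jchain, which joins IgA dimers, had 6.06, 6.44, 5.82, 8.01 and 5.24 in the 12-week mice, against 5.66, 4.93, 4.72, 4.94 and 4.86 in the 8-week mice.

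The 12-week replicate 4 was highest and replicate 5 lowest of its age for both genes, and neither passed (differences of 1.78 and 1.29, limma adjusted p = 0.178 and 0.129). Genes of B cells before that stage lay below 0, with Pax5 at -0.42, Cd79b at -0.41 and Cd79a at -0.39, and none passed. Markers of lymph node B and T cells had medians of -0.21 and -0.22 with the trend kept, with 0 of 7 and 0 of 6 positive. With the trend removed both medians were -0.30, with 1 of 7 and 0 of 6 positive. Of the B cell markers 3 (42.9%) were nominally lower in each fit, and of the T cell markers 1 (16.7%). Averaged over the T cell markers, the 12-week mice lay between 5.28 and 5.4, and the 8-week mice between 5.52 and 5.66. Without the trend these ranges were 5.26 to 5.37 and 5.49 to 5.73. The averages of the B cell markers overlapped with the trend kept. The part of left lymphoid tissue in these values was not tested.

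T and NK cell genes (22 measured) had medians of -0.14 and -0.10, macrophage and dendritic cell genes (24) of 0.16 and 0.11, and interferon response genes (25) of 0.03 and 0.04. In the last list 2 genes were nominally higher and 2 lower in each fit. Ifih1, the sensor of double-stranded RNA MDA5, differed by 0.76 and 0.70 (limma adjusted p = 0.2 and 0.214). Dhx58 differed by -0.50 and -0.56 (limma adjusted p = 0.167 and 0.182). Heat shock and immediate early genes (28), which respond to handling of tissue, had medians of 0.22 and -0.04.

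Further lists below 0 had a low median signal, against 5.49 over all genes. Ligand-gated channels (54 genes, median mean signal 4.86) had medians of -0.20 and -0.15, with 1 nominally higher and 7 lower, and 0 and 4 with the trend removed. Glra3, a glycine receptor subunit, had the lowest difference there, -0.56 and -0.44, and P2rx4, an ATP-gated channel, the highest with the trend kept, 0.61, and 0.13 without it. Olfactory receptors (39 genes, median mean signal 4.87), which are not known for a role in saliva, had medians of -0.14 and -0.07, with 0 nominally higher and 5 lower. Cell cycle genes (31, median mean signal 5.18) had medians of -0.16 and -0.10. Beside them, all genes in the deciles of that brightness had medians of -0.11 and -0.08 with the trend kept.

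**Figure D5:**
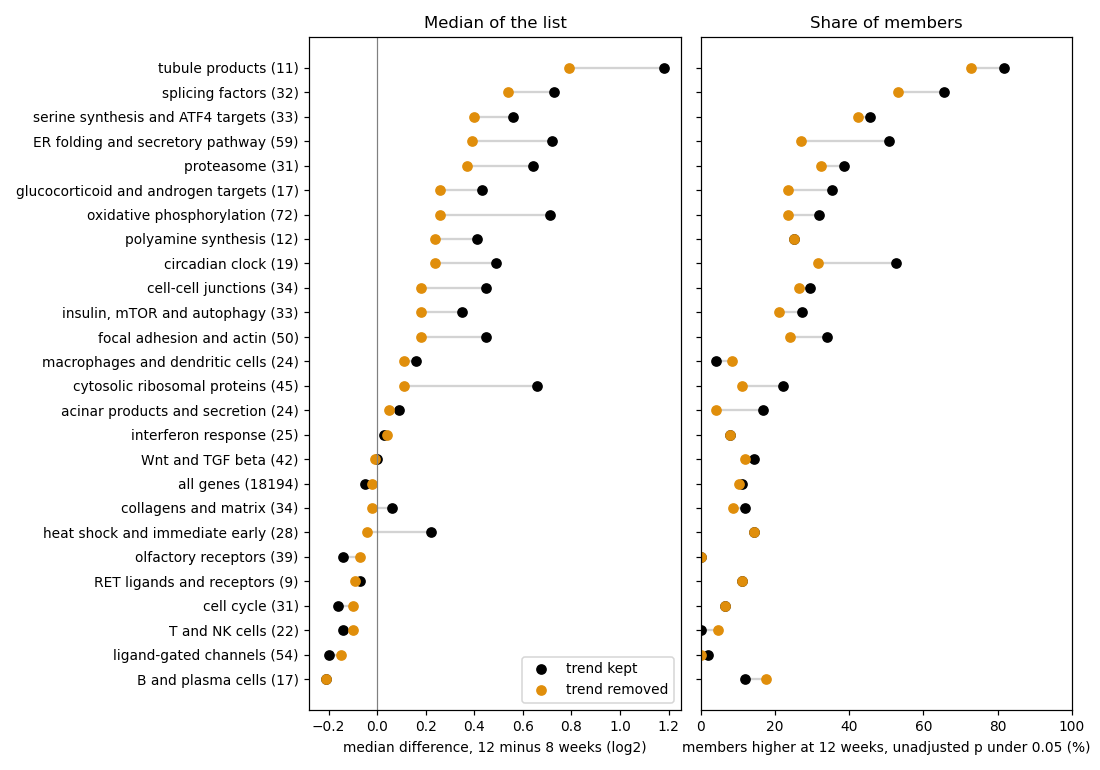
Median difference of 12 minus 8 weeks (left) and the share of members nominally higher (right) for the function lists, olfactory receptors and all genes, with the number of measured genes in parentheses, for the trend kept (black) and removed (orange). Without the trend, tubule products (0.79), splicing factors (0.54) and ATF4 targets (0.40) stood highest, against -0.02 for all genes.

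None of the 12 lists of cell type markers held a gene that passed in either fit. With the trend kept and removed, the medians were 0.30 and -0.09 for acinar markers, 0.27 and 0.02 for duct markers, 0.07 and -0.03 for myoepithelial markers, -0.12 and -0.09 for adipocyte markers and -0.17 and -0.06 for skeletal muscle markers. Sublingual and parotid markers (7 measured) had medians of 0.11 and -0.05, but differed widely between mice of the same age. Averaged over them, the 12-week mice had 6.5, 8.75, 9.03, 7.29 and 6.96 with the trend kept. The 8-week mice had 8.02, 9.28, 6.98, 6.31 and 6.75. The part of the makeup of the glands in the differences above was not tested beyond these values.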

How the data were processed

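The values analysed were log2 signals, which the authors made by RMA with the Affymetrix Expression Console. RMA corrects the background, brings the probe intensities of the arrays to 1 distribution and summarises them per probe set, and which arrays were normalized together is not given in the sources used here. The platform annotation gave 1 symbol for 34958 of 45101 probe sets, several for 932, and left 9211 unnamed. The highest mean over 20 arrays chose the probe set of a gene, for 18194 genes.

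The 4 ages were fitted together with limma 3.58.1 in R 4.3.3, with age as the only factor, and p-values were adjusted by Benjamini-Hochberg over all genes. The trend was removed by lowess with a span of 0.3 in each array. Single values per array were compared by exact permutation tests (scipy 1.17.1), and the steps were tested on simulated data.

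The genes named were those that passed in either fit, the 10 largest differences each way in each fit among brighter genes without overlap, and the 3 largest of each list. Other list members and genes with a promoter match were chosen after their values were seen. The comparison and the 24 lists of functions were chosen with earlier results of these data known. Of the named columns, 0 belonged to other samples. The number of arrays limits the precision. Alternatives covered the samples fitted, variances, weights, probe sets, filters, normalization, a replicate block and each mouse left out, and a fit without 2 arrays was added after seeing the data.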

Additional observations from a re-analysis of the deposited data

Results flagged for a closer look

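In 17 of 208 sets of 5 values examined, 1 mouse stood far from the other 4 by Dixon's test, whose limit chance passes in about 1 of 20 sets. The sets were genes and array measures of the same 5 and 5 mice, and many genes were chosen for their differences. They are not independent, so their count cannot be set against that rate. At 12 weeks the lowest mouse was replicate 2 for Klk1b16 (10.48, others from 11.23), Klk1 (12.65, others from 13.48), Pip (11.17, others from 12.91) and Herpud1 (9.33, others from 9.86). Replicate 3 was lowest for Tpx2 (7.03), Syt11 (6.86) and Azin1 (8.21) and highest for Asph (8.24, others up to 6.53) and Nupr1 (11.96, others up to 10.2). Spcs1 had its lowest 12-week value of 7.5 in replicate 4, and Tra2a its lowest of 6.05 in replicate 5.

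At 8 weeks, replicate 1 was far below the others for Nfib (4.27, others from 7.11) and above them for Jchain (5.66, others up to 4.94) and Chac1 (9.02, others up to 7.27). Replicate 5 was lowest for Spcs1 (5.54) and Klk1 (10.9, others from 12.72), and replicate 3 highest for Bhlhe41 (5.49). These values were left in every fit.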

How the results depend on the processing

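The number of genes that passed was 1 with the trend kept and 7 with it removed, and both depended on the fit. With 12 and 8 weeks alone in the fit, 274 passed with the trend kept (259 higher, 15 lower). With the trend removed 8 passed in that fit, and only 3 of the 7 genes described above were among them. A lowess over these ages alone also gave 8 genes, with 3 of the 7 among them. The calls with the trend removed thus depended on taking the spread from all 4 ages. Limma-trend with robust variances gave 2 and 4 genes with the trend kept and removed, array weights 27 and 29, and median centring 2 and 4. The mean of probe sets gave 0 and 13 (with the trend kept, limma gave 1666 genes higher and 1723 lower at a p under 0.05 before adjustment). Each probe set on its own gave 3 with the trend removed, a filter that dropped genes below the 40th percentile 27, and quantile normalization 15. Without each mouse in turn the counts were between 1 and 225 with the trend kept and between 1 and 330 with it removed, with the highest counts without 8-week replicate 4 and the lowest, with the trend removed, without 12-week replicate 4 or 5. Without 8-week replicates 3 and 5 the counts were 1 and 1, and the cause of these shifts was not tested. Ret was among the genes called in each of these fits to genes with the trend kept except that on the mean of probe sets. Before adjustment, median centring turned the split with the trend removed to 1551 genes higher and 1708 lower, against 1861 and 1190. The difference in the spread of signal lay between 0.108 and 0.168 and in the slope between 0.0869 and 0.148 over all alternatives. Klk1, at -0.02 with the trend removed, was 0.03 with array weights, 0.35 with quantile normalization and 0.08 without 8-week replicates 3 and 5, and between -0.20 and 0.21 with each mouse left out. Pip, at -0.23 with the trend kept, was 0.74 with the mean of probe sets and between -0.38 and 0.15 with each mouse left out, with the highest value without 12-week replicate 2. P2rx4, at 0.61 and 0.13, was -0.01 and -0.22 without 8-week replicates 3 and 5, and with the trend removed between -0.08 and 0.31 with each mouse left out.

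The replicate block left 1 gene with the trend kept and 2 with it removed, Ret and Psat1. Same-numbered mice of the 2 ages had correlations of deviations of 0.23, 0.01, -0.25, 0.27 and 0.09, and 3 of 5 mice did not correlate best with their own number, so the numbers were not taken as pairs.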
